A study of Mus musculus with 16 samples.

Results

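The set described here is 10 mouse genes of acyl-CoA turnover: 7 acyl-CoA thioesterase genes (Acot1, Acot2, Acot3, Acot4, Acot8, Acot12 and Acot13) and 3 medium-chain acyl-CoA synthetase genes (Acsm1, Acsm3 and Acsm5). They were taken by symbol from a table of read counts, where all 10 were found among 16973 genes. The RNA came from 16 livers of male C57BL/6 mice in 4 groups of 4. These were RPN11 hepatocyte-specific knockout livers, RPN11 flox/flox livers, METTL3 hepatocyte-specific knockout livers and METTL3 flox/flox livers, so that each knockout has as control the livers of its own floxed line. RPN11, encoded by Psmd14, is the deubiquitinating subunit of the proteasome, and METTL3 is the catalytic subunit of the RNA N6-methyladenosine methyltransferase. The sources used here do not state the Cre driver, the deleted exons, age or diet. Livers carry only a replicate number, and nothing in the labels says that each came from a separate animal, so the p-values measure the spread between these samples.

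Acyl-CoA thioesterases cleave a fatty acyl-CoA into the free acid and CoA, whereas acyl-CoA synthetases join the acid to CoA again. The medium-chain synthetases act in mitochondria on medium-chain and aromatic acids, among them benzoate, which the liver then conjugates to glycine. The thioesterases are spread over compartments, and in mouse liver several of the genes on the thioesterase cluster are known targets of the fatty acid receptor PPAR alpha, induced by fasting and by its agonists.

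Of the 10 genes, 8 were lower in METTL3 knockout than in METTL3 flox/flox livers and none was higher, where 30.5% of all genes tested were called in either direction (edgeR, adjusted p under 0.05). In livers labelled RPN11 knockout all 10 estimates lay below RPN11 flox/flox livers and 0 passed the test, where 4.81% of all genes were called. An unadjusted p under 0.05 by edgeR was reached by 6 of the 10, and by 3032 of all 12108 genes tested. Acot3, a peroxisomal thioesterase, had the largest estimate in each line, with a mean of 6.48 ± 1.65 CPM in METTL3 knockout against 74.0 ± 61.1 CPM in METTL3 flox/flox livers, and 22.4 ± 9.89 CPM in livers labelled RPN11 knockout against 96.6 ± 59.9 CPM in RPN11 flox/flox livers (SD, n = 4 each). CPM are counts scaled to library size, with TMM factors between all 16 livers. Less RNA per hepatocyte and fewer hepatocytes in the tissue cannot be told apart in such bulk samples, here or below.

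Library totals ran from 15980959 to 27778135 counts in METTL3 knockout, from 25062848 to 29029592 in METTL3 flox/flox, from 20938715 to 27645935 in RPN11-labelled knockout and from 24516234 to 28212133 in RPN11 flox/flox livers. Mettl3 had 6.59, 6.25, 6.44 and 6.40 CPM in METTL3 knockout against 13.7, 17.2, 17.7 and 14.4 CPM in METTL3 flox/flox livers (log2 fold change -1.29, SE 0.17, adjusted p = 0.000647 by edgeR). Psmd14 had 92.2, 72.6, 83.6 and 62.4 CPM in livers labelled RPN11 knockout against 74.4, 81.0, 76.6 and 82.1 CPM in RPN11 flox/flox livers (log2 fold change 0.01, SE 0.11, adjusted p = 0.976). The RNA of the targeted gene was therefore not lower under the RPN11 knockout label, and these livers are named by their label throughout. Knockout liver 4 of each line held brain transcripts, at 584 CPM in RPN11 and 401 CPM in METTL3 summed over 15 marker genes, against 15.6 to 36.2 CPM in the other livers. The summed level of 8 hepatocyte markers was 94607 to 131177 CPM in livers labelled RPN11 knockout against 137586 to 159578 CPM in RPN11 flox/flox livers. With plain library totals in place of TMM scaling these sums overlapped, at 106774 to 125713 against 121348 to 144431 CPM. It was 139009, 82172, 72134 and 64828 CPM in METTL3 knockout livers 1 to 4 against 128009 to 155158 CPM in METTL3 flox/flox livers.

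In GRCm38 coordinates, 4 of the genes stand side by side on the plus strand of chromosome 12. Acot2 spans chr12:83987861-83993873, Acot1 spans chr12:84009490-84018371, Acot4 spans chr12:84038379-84048601 and Acot3 spans chr12:84052144-84060402, with Acot5 and Acot6 next to them. Acsm5 (chr7:119519463-119545551), Acsm1 (chr7:119607026-119662515) and Acsm3 (chr7:119760923-119787513) form another run on the plus strand of chromosome 7, with Acsm2 and Acsm4 between them. Acot8 (chr2:164792765-164804882, minus strand), Acot12 (chr13:91741512-91786148, plus strand) and Acot13 (chr13:24817948-24831540, minus strand) stand alone.

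The 250 bases upstream of the start were read from RefSeq (GRCm38.p6) for 9 of the 10 genes. Both strands were searched for the direct repeat that PPAR alpha and its partner RXR bind, AGGTCA, any 1 base, and AGGTCA again. Acot12 held it with 1 mismatch and Acot4 with 2, both on the strand opposite the gene. Within 1 mismatch it occurs in 0.484% of 32841 such promoters, and within 2 mismatches in 3.24%. AGGTCA alone, which lies inside the repeat, was present in 3 of the 10 promoters of the set (Acot3 has 2 starts) and in 14.0% of all. The promoters below are printed because Acot3 fell most, Acot4 is its neighbour and Acot12 holds the closest match. Capitals mark the match, and the Acot3 promoter has no match within 2 mismatches.
Acot3, chr12:84051894-84052143, plus strand: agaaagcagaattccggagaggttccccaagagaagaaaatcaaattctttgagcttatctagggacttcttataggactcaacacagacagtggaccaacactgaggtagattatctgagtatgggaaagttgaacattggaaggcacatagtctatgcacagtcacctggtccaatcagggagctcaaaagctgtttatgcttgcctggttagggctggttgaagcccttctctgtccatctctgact
Acot4, chr12:84038129-84038378, plus strand: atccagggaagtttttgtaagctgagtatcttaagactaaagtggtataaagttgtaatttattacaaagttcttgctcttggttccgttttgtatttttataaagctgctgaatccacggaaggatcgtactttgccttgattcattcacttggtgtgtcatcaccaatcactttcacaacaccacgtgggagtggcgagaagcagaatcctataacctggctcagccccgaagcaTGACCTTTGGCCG
Acot12, chr13:91741271-91741520, plus strand: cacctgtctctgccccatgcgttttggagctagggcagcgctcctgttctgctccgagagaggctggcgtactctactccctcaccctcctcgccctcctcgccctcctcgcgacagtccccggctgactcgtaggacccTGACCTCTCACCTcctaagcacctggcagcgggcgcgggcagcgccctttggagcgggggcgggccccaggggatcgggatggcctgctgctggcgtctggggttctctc
Over the 4 genes on chromosome 12, pairs of promoters of different genes were aligned end to end with gaps allowed. Between 192 and 212 bases were aligned, and identical bases amounted to 57.6% to 61.2% of the 250. The value for unrelated promoters was not computed, so these shares do not show common promoter sequence. A match of letters is a description and does not show binding.

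Some reads of these genes could belong to a relative or an overlapping gene. Of the 100-base windows of Acot1, 12.4% occurred in another gene, mostly Acot2, and of those of Acot2, 17.1% occurred in Acot1. For Acot3 the share was 15.9%, most of it in Gm49366, a gene model on the same strand that spans Acot4 and Acot3 and was not analysed here. For Acot4 it was 8.24%, nearly all in an antisense gene, and for Acsm3 27.8%, all in Eri2 on the opposite strand. Neither Gm49366 nor this antisense gene has a row in the deposited counts, and the annotation used in counting is not stated. The share was 7.14% for Acot8, which overlaps Snx21, and 1.57% or less for Acot12, Acot13, Acsm1 and Acsm5. The sources used here do not state whether counting used the strand, so the levels of Acsm3, Acot4 and Acot8 are uncertain by reads added or lost where they overlap their partners. The level of Acot3 is uncertain through Gm49366 on its own strand, whether or not counting used the strand. Eri2 itself had a log2 fold change of 0.48 in METTL3 knockout against METTL3 flox/flox livers (SE 0.22, adjusted p = 0.114) and -0.02 in RPN11-labelled knockout against RPN11 flox/flox livers (SE 0.24, adjusted p = 0.976), and Snx21 had -0.37 (SE 0.32, adjusted p = 0.386) and -0.35 (SE 0.38, adjusted p = 0.608) in the same comparisons.

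Per kilobase of exon, Acsm1 was the highest of the 10 in every group, and its livers stood apart from those of the next gene. It averaged 111 ± 52.7 RPKM in METTL3 knockout, 202 ± 19.9 in METTL3 flox/flox, 144 ± 29.7 in RPN11-labelled knockout and 179 ± 19.1 RPKM in RPN11 flox/flox livers (SD, n = 4 each). Acot13 and Acot12 held the next places in all groups, in either order, with ranges that overlapped each other, at 82.0 ± 12.0 and 69.1 ± 4.55 RPKM in METTL3 flox/flox livers. Acsm3 and Acsm5 came next and overlapped, at 54.5 ± 4.64 and 49.1 ± 4.04 RPKM in METTL3 flox/flox livers. Acot3, Acot1 and Acot4 followed in flox/flox livers of both lines, each overlapping the next, and Acot2 and Acot8 were lowest there, at 5.46 ± 2.33 and 5.37 ± 1.98 RPKM in METTL3 flox/flox livers. In METTL3 knockout livers Acot3 had the lowest mean of the 10 at 1.89 ± 0.48 RPKM, overlapping Acot8 at 2.12 ± 0.56 RPKM, while in METTL3 flox/flox livers it was the sixth at 21.5 ± 17.8 RPKM. The place of Acot3 also differed in the RPN11 line, where it was the eighth in livers labelled RPN11 knockout (6.53 ± 2.88 RPKM, overlapping Acot4 and Acot8 beside it) and the sixth in RPN11 flox/flox livers (28.1 ± 17.4 RPKM). Counts behind these values ran from 75 for Acot8 in METTL3 knockout liver 4 to 12434 for Acsm1 in METTL3 flox/flox liver 1.

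**Figure D1:**
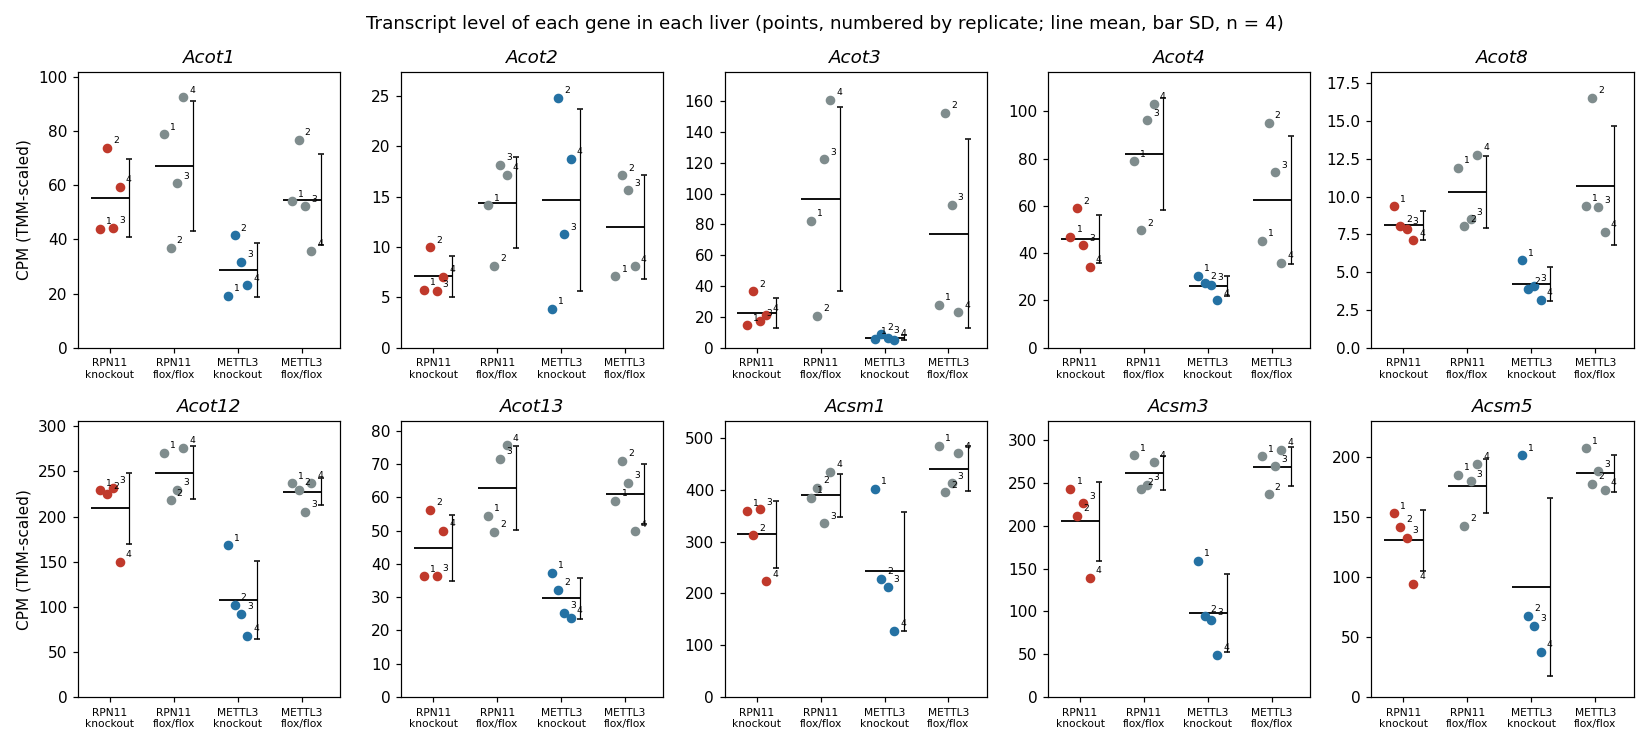
CPM of each of the 10 genes (y axis, from 0, a scale per gene) in each liver of the 4 groups, with points numbered by replicate, lines for means and bars for SD (n = 4). In METTL3 knockout livers Acot3 lies between 4.80 and 8.72 CPM, and Acsm5 has liver 1 at 202 CPM and the other livers at 37.7 to 67.6 CPM.

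The genes of the chromosome 12 cluster are taken first. Acot3 had 5.90, 8.72, 6.52 and 4.80 CPM in METTL3 knockout livers against 27.8, 152, 92.9 and 23.1 CPM in METTL3 flox/flox livers. The groups did not overlap, and the flox/flox livers themselves spread 6.60-fold. The fall was 11.4-fold (log2 fold change -3.51, SE 0.67, adjusted p = 0.00824 by edgeR, Benjamini-Hochberg over 12450 genes). Without METTL3 flox/flox liver 2, the highest of its group, the log2 fold change was -2.88 (SE 0.51, adjusted p = 0.0101). In livers labelled RPN11 knockout Acot3 had 14.5, 36.7, 17.5 and 21.05 CPM, against 82.4, 20.8, 122 and 161 CPM in RPN11 flox/flox livers. RPN11 flox/flox liver 2 lay among the knockout livers, and the other flox/flox livers lay above all of them. The estimate was -2.07 on the log2 scale (SE 0.63) with an adjusted p of 0.108 over 12108 genes, and without that flox/flox liver the adjusted p was 0.0291.

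Acot4, a peroxisomal thioesterase that acts on succinyl-CoA and other dicarboxylic acyl-CoAs in mouse, had 30.5, 27.3, 26.7 and 20.1 CPM in METTL3 knockout livers against 45.2, 95.1, 74.2 and 35.9 CPM in METTL3 flox/flox livers. The groups did not overlap with TMM scaling, although they did with plain library totals. The knockout livers spread far less than the flox/flox livers. Acot4 fell 2.39-fold (log2 fold change -1.26, SE 0.28, adjusted p = 0.00872). Acot4 had 47.0, 59.0, 43.4 and 34.2 CPM in livers labelled RPN11 knockout against 78.9, 49.7, 96.1 and 103 CPM in RPN11 flox/flox livers. Flox/flox liver 2 was again the low liver of its group and overlapped the knockout range. The estimate was -0.81 (SE 0.22, adjusted p = 0.0627).

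Acot1, the cytosolic thioesterase for long-chain acyl-CoAs, had 19.2, 41.5, 31.6 and 23.1 CPM in METTL3 knockout livers against 54.1, 76.6, 52.1 and 35.8 CPM in METTL3 flox/flox livers. Knockout liver 2 lay above flox/flox liver 4, so the groups overlapped. Acot1 fell 1.89-fold (log2 fold change -0.92, SE 0.27, adjusted p = 0.0279), a call that ended when any of 5 of the 8 livers was left out (knockout liver 3 or 4, or flox/flox liver 1, 2 or 3, with adjusted p of 0.0560 to 0.0738 by edgeR). Acot1 had 43.8, 73.8, 44.2 and 59.4 CPM in livers labelled RPN11 knockout against 78.7, 37.0, 60.7 and 92.3 CPM in RPN11 flox/flox livers. Those groups lay largely on top of each other (log2 fold change -0.25, SE 0.29, adjusted p = 0.633).

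Acot2, the mitochondrial member of the cluster, did not pass the test in either line. It had 3.89, 24.8, 11.3 and 18.7 CPM in METTL3 knockout livers against 7.10, 17.1, 15.6 and 8.10 CPM in METTL3 flox/flox livers. Knockout livers 2 and 4 lay above all flox/flox livers and liver 1 lay below all of them, so the groups could not be parted (log2 fold change 0.30, SE 0.54, adjusted p = 0.696). Acot2 had 5.77, 9.96, 5.61 and 7.06 CPM in livers labelled RPN11 knockout against 14.1, 8.12, 18.2 and 17.1 CPM in RPN11 flox/flox livers. Flox/flox liver 2 was the low one here too, and the estimate was -0.99 (SE 0.27, adjusted p = 0.0589).

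Summed over Acot1 to Acot6, the cluster had 60.5, 108, 81.0 and 71.2 CPM in METTL3 knockout livers against 135, 342, 237 and 103 CPM in METTL3 flox/flox livers. The sum removes an exchange of reads among these genes only. It does not restore reads dropped in counting, or settle those shared with Gm49366 or the antisense gene. It had 113, 181, 113 and 124 CPM in livers labelled RPN11 knockout against 257, 117, 298 and 375.5 CPM in RPN11 flox/flox livers. In the METTL3 line knockout liver 2 lay above flox/flox liver 4, and in the RPN11 line flox/flox liver 2 lay below 2 knockout livers. Acot3 made up 9.75%, 8.10%, 8.06% and 6.73% of the cluster counts in METTL3 knockout livers against 20.7%, 44.5%, 39.2% and 22.4% in METTL3 flox/flox livers. It made up 12.8%, 20.3%, 15.5% and 17.0% in livers labelled RPN11 knockout against 32.1%, 17.8%, 41.0% and 42.9% in RPN11 flox/flox livers. The highest share in METTL3 knockout livers had a 95% Wilson interval of 8.37% to 11.3%, and the lowest in METTL3 flox/flox livers 19.3% to 22.0%, which cover counting error only. The share was thus lower in every METTL3 knockout liver than in any METTL3 flox/flox liver, while RPN11 flox/flox liver 2 lay among the knockout livers of its line.

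**Figure D2:**
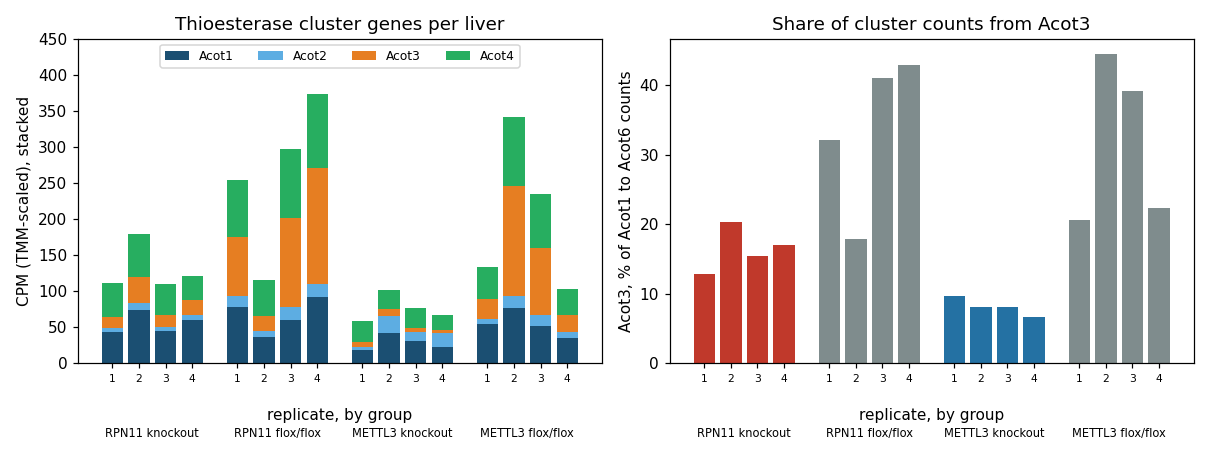
Left, stacked CPM of Acot1, Acot2, Acot3 and Acot4 per liver; right, the share of Acot1 to Acot6 counts that came from Acot3 (%), both by replicate within the 4 groups. The Acot3 share is 6.73% to 9.75% in METTL3 knockout and 20.7% to 44.5% in METTL3 flox/flox livers.

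Outside the cluster, Acot8 encodes a peroxisomal thioesterase of broad chain length. It had 5.78, 3.90, 4.08 and 3.16 CPM in METTL3 knockout livers against 9.40, 16.5, 9.29 and 7.69 CPM in METTL3 flox/flox livers, without overlap. Acot8 fell 2.54-fold (log2 fold change -1.34, SE 0.29, adjusted p = 0.00587). Acot8 had 9.37, 8.04, 7.89 and 7.10 CPM in livers labelled RPN11 knockout against 11.9, 8.04, 8.51 and 12.8 CPM in RPN11 flox/flox livers, with overlapping groups (log2 fold change -0.32, SE 0.20, adjusted p = 0.333).

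Acot12, the cytosolic acetyl-CoA hydrolase of liver, had 168, 102, 92.2 and 67.6 CPM in METTL3 knockout livers against 237, 229.8, 206 and 238 CPM in METTL3 flox/flox livers. The groups did not overlap, and knockout liver 1 was the nearest to the flox/flox range. Acot12 fell 2.12-fold (log2 fold change -1.08, SE 0.23, adjusted p = 0.00523). Acot12 had 229, 225, 232 and 149.6 CPM in livers labelled RPN11 knockout against 271, 218, 229 and 276 CPM in RPN11 flox/flox livers. Knockout liver 4, which also held brain transcripts, stood below the rest, and the others lay within the flox/flox range (log2 fold change -0.23, SE 0.14, adjusted p = 0.328).

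Acot13, a small hotdog-fold thioesterase for long-chain acyl-CoAs found with mitochondria, had 37.2, 32.2, 25.3 and 23.8 CPM in METTL3 knockout livers against 59.0, 71.0, 64.3 and 49.8 CPM in METTL3 flox/flox livers. The groups did not overlap. It had the smallest SE and the lowest adjusted p of the 10 genes there (2.06-fold lower, log2 fold change -1.04, SE 0.16, adjusted p = 0.00134). Acot13 had 36.3, 56.3, 36.4 and 49.96 CPM in livers labelled RPN11 knockout against 54.4, 49.6, 71.5 and 75.5 CPM in RPN11 flox/flox livers. Knockout livers 2 and 4 reached into the flox/flox range (log2 fold change -0.45, SE 0.19, adjusted p = 0.164).

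Among the synthetases, Acsm3 had 159, 94.4, 90.5 and 49.2 CPM in METTL3 knockout livers against 281, 237, 269 and 289 CPM in METTL3 flox/flox livers. The groups did not overlap, although knockout liver 1 stood well above the other knockout livers. Acsm3 fell 2.75-fold (log2 fold change -1.46, SE 0.27, adjusted p = 0.00340). Acsm3 had 243, 212, 227 and 139 CPM in livers labelled RPN11 knockout against 282, 243, 248 and 274 CPM in RPN11 flox/flox livers. Knockout liver 1 met flox/flox liver 2 and liver 4 was the lowest (log2 fold change -0.33, SE 0.15, adjusted p = 0.186).

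Acsm1, a synthetase that activates benzoate and medium-chain acids, had 402, 229, 213 and 128 CPM in METTL3 knockout livers against 485, 395, 413 and 471 CPM in METTL3 flox/flox livers. Knockout liver 1 lay inside the flox/flox range and the other knockout livers lay below it. Acsm1 fell 1.82-fold (log2 fold change -0.86, SE 0.27, adjusted p = 0.0339), and the call ended when any of 6 of the 8 livers was left out (knockout liver 2 or 3, or any flox/flox liver, with adjusted p of 0.0605 to 0.0902 by edgeR). Acsm1 had 359.9, 313, 362 and 224 CPM in livers labelled RPN11 knockout against 385, 404, 336 and 435 CPM in RPN11 flox/flox livers. These groups overlapped (log2 fold change -0.29, SE 0.15, adjusted p = 0.242).

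Acsm5, the third mitochondrial synthetase, had 202, 67.6, 59.6 and 37.7 CPM in METTL3 knockout livers against 207, 178, 188 and 173 CPM in METTL3 flox/flox livers. Knockout liver 1 was at the flox/flox level and the other knockout livers were far below it, so the estimate of -1.03 had an SE of 0.46 and an adjusted p of 0.126. Without knockout liver 1 the estimate was -1.75 and the adjusted p was 2.80e-05. Acsm5 had 153, 142, 133 and 94.6 CPM in livers labelled RPN11 knockout against 185, 143, 179.9 and 195 CPM in RPN11 flox/flox livers. Knockout liver 1 overlapped flox/flox liver 2 (log2 fold change -0.40, SE 0.14, adjusted p = 0.111).

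METTL3 knockout liver 1 was thus the highest of its group for all 3 synthetase genes, Acot12, Acot13, Acot8 and Acot4, and the lowest for Acot1 and Acot2. Its hepatocyte marker sum of 139009 CPM lay in the flox/flox range, whereas its Mettl3 level of 6.59 CPM was like that of the other knockout livers. The part of hepatocyte content in these levels was not tested. Markers of other liver cells were higher in METTL3 knockout livers, where macrophage markers (8 of 9 found) summed to 237 to 346 CPM, endothelial markers (6 of 7) to 132 to 148 CPM, stellate markers (6 of 6) to 352 to 484 CPM and cholangiocyte markers (5 of 5) to 199 to 527 CPM. In METTL3 flox/flox livers the same sums were 98.1 to 164 CPM for macrophage, 82.8 to 114 CPM for endothelial, 256 to 339 CPM for stellate and 66.5 to 142 CPM for cholangiocyte markers. Their part in the results was not tested. In livers labelled RPN11 knockout 1 to 4 the cholangiocyte sum was 96.5, 90.4, 102 and 607 CPM, against 62.5 to 82.8 CPM in RPN11 flox/flox livers. The macrophage, endothelial and stellate sums overlapped between these groups. With plain library totals the stellate sums did not, at 283 to 353 CPM under the knockout label against 232 to 280 CPM in RPN11 flox/flox livers. The highest cholangiocyte sum of each knockout group came from its liver 4, which held brain transcripts, and METTL3 knockout livers 1 to 3 had 204, 199 and 254 CPM. Of the macrophage, endothelial, stellate and cholangiocyte markers that were found, none was at 0 in any group. The markers that were not found could not be judged.

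Counted over the set, 8 of 10 genes were called lower and 0 higher in METTL3 knockout against METTL3 flox/flox livers by edgeR. Over all genes 15.3% were called lower and 15.2% higher. The median log2 fold change of the 10 genes was -1.06, against 0.04 for all genes tested. In 6 genes (Acot3, Acot4, Acot8, Acot12, Acot13 and Acsm3) the knockout livers did not overlap the flox/flox livers and were lower, as in 15.9% of all genes. With plain library totals in place of TMM scaling the median of all genes stood at 0.46, the median of the set at -0.73, and the calls of Acot1 and Acsm1 ended. The Acot4 groups then overlapped, as knockout liver 2 held 953 of 27778135 counts and flox/flox liver 4 held 882 of 26362139. Without knockout liver 4, which held brain transcripts, 7 were called lower, where 12.2% of all genes were.

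In livers labelled RPN11 knockout against RPN11 flox/flox livers, 0 of 10 genes were called by edgeR, where 2.82% of all genes were called lower and 1.99% higher. The median log2 fold change of the set was -0.37, against 0.03 for all genes, and the range was -2.07 to -0.23. In no gene of the set did the groups separate, which 17.6% of all genes did. DESeq2 called 3 of the 10 lower (Acot2, Acot3 and Acot4) and 11.3% of all genes in either direction, and limma with voom and liver quality weights also called 3 (Acot2, Acot4 and Acot13) and 12.0% of all genes. Without RPN11 flox/flox liver 2 edgeR called the same 3 genes as DESeq2, and 2.13% of all genes. Without knockout liver 4, the one with brain transcripts, edgeR called Acot2 alone of the 10, and 7.69% of all genes.

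**Figure D3:**
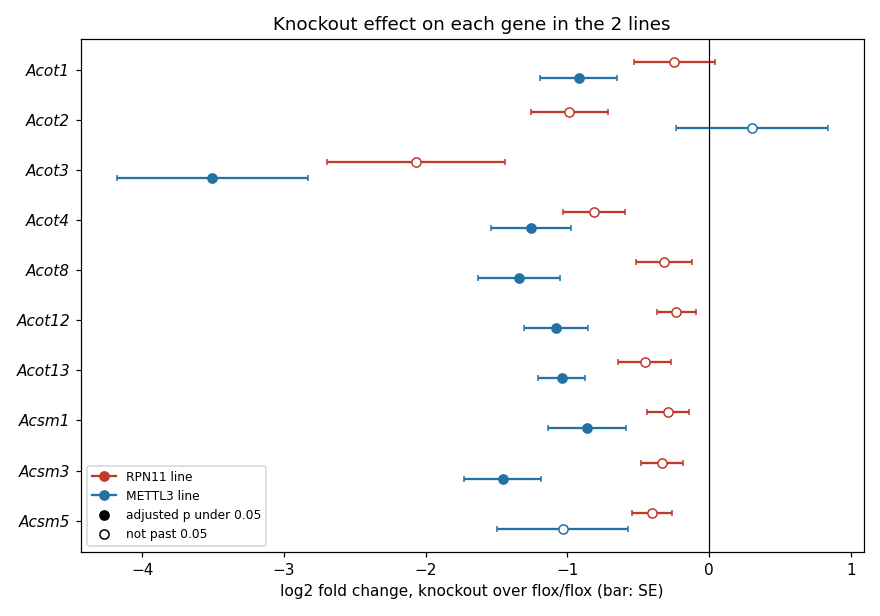
log2 fold change, knockout over flox/flox (x axis), of each gene (y axis) in the RPN11 line (upper point) and the METTL3 line (lower point), with bars for SE and filled points for adjusted p under 0.05. All RPN11 points are open and lie between -2.07 and -0.23, and 8 METTL3 points are filled, from -3.51 for Acot3 to -0.86 for Acsm1.

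The difference between the knockout effects, RPN11 minus METTL3, was tested in a fit of all 16 livers. It passed the test for Acsm3 alone (1.11 on the log2 scale, SE 0.34, adjusted p = 0.0398), where 13.1% of all genes were called, 6.96% above 0 and 6.15% below. The Acsm3 effect was -0.33 for RPN11 and -1.46 for METTL3, and the call ended when any of 13 of the 16 livers was left out, all but METTL3 knockout livers 1 and 4 and RPN11-labelled knockout liver 4, with adjusted p of 0.0567 to 0.0842 by edgeR. The difference was above 0 in 9 of 10 genes, among them Acot8 at 1.01 (SE 0.35, adjusted p = 0.0659) and Acot12 at 0.84 (SE 0.29, adjusted p = 0.0669). Acot2 was the exception at -1.30 (SE 0.64, adjusted p = 0.204). For Acot3, the gene of the largest estimate in each line, the difference was 1.41 with an SE of 0.92 (adjusted p = 0.357). Line and any difference in how the lines were bred or collected cannot be told apart.

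Between the flox/flox livers, RPN11 line against METTL3 line, 0 of 10 genes were called by edgeR, where 0.319% of all genes were called. In the same test 0 of the 10 had an unadjusted p under 0.05, where 1962 of all 11905 genes did. Estimates ran from -0.19 for Acsm1 to 0.37 for Acot4. The groups overlapped in all 10 genes, and 9.15% of all genes did not overlap. Acot3 varied most within these groups, 7.73-fold between the lowest and the highest RPN11 flox/flox liver, and its estimate of 0.37 had an SE of 0.84.

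The genes differed in how much they varied between livers of a group. In flox/flox livers the coefficients of variation of Acot1 to Acot4 were 29.05% to 62.0% in the RPN11 line and 30.7% to 82.6% in the METTL3 line. Those of the 3 synthetase genes were 7.41% to 12.9% in RPN11 flox/flox and 8.22% to 9.85% in METTL3 flox/flox livers. In METTL3 knockout livers the synthetase genes varied by 46.2% to 81.2%, and in livers labelled RPN11 knockout by 19.5% to 22.3%. Acot3 went the other way, with 25.5% in METTL3 knockout against 82.6% in METTL3 flox/flox livers. So did Acot4 (16.7% against 43.3%) and Acot8 (26.2% against 36.8%), while all other genes of the set varied more in METTL3 knockout livers.

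Deviations from the group mean were compared between genes, in 2 sets formed after their values were seen. After the group mean was taken off the log2 CPM of each liver, the 6 pairs among Acot12, Acsm1, Acsm3 and Acsm5 had Pearson r of 0.907 to 0.971 over 16 livers. The 6 pairs among Acot1 to Acot4 had r of 0.389 to 0.906, the highest for Acot3 with Acot4. The 16 pairs across the sets had r of -0.668 to 0.392, the lowest for Acot2 with Acsm1. The 17 pairs with Acot8 or Acot13 had r of -0.083 to 0.729 with a median of 0.469, and Acot8 with Acot4 (0.729) and Acot13 with Acot3 (0.722) were above several pairs among Acot1 to Acot4. The livers share their library scaling, and METTL3 knockout liver 1 is among the points, so these values describe these livers.

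**Figure D4:**
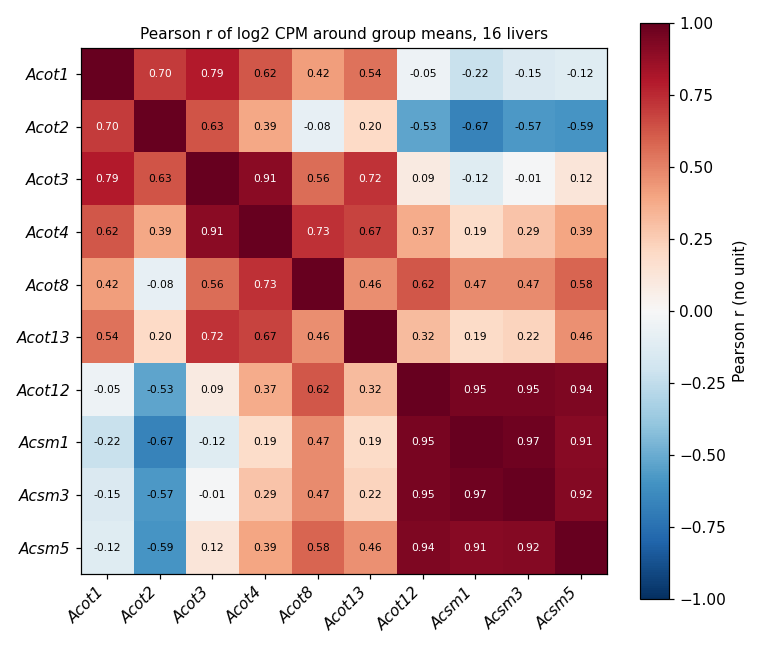
Pearson r (colour and number, no unit) between the genes (both axes) of log2 CPM after subtraction of the group mean, over 16 livers. A block of r of 0.907 to 0.971 joins Acot12 and the 3 synthetase genes, and the pairs among Acot1 to Acot4 run from 0.389 to 0.906.

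By the same measure, among 8818 genes of at least 5 CPM on average, Acot3 was most like Crat (r = 0.911), the carnitine acetyltransferase, then Gstm1 (0.910), a glutathione transferase, and Acot4 (0.906). Acot4 was most like Csnk2b (0.925), Fmo2 (0.915) and Acot3. Acot13 was most like Atp5g1 (0.970), Ndufa3 (0.966) and Atp5j2 (0.953), which encode subunits of mitochondrial ATP synthase and complex I. Acsm3 was most like Ugt3a2 (0.983), Ugt2a3 (0.980) and Slco1b2 (0.978), conjugating enzymes and a hepatocyte uptake carrier. By rank (Spearman) the same Acsm3 pairs had 0.903, 0.791 and 0.838, and the Acot13 pairs had 0.956, 0.976 and 0.918. Among the genes most like Acsm1 were Ces3a (0.985) and Cyp4f14 (0.981), and Acot12 was most like Akr1c12 (0.970), Pde3b (0.965) and Fbxo3 (0.962). Acot1 was most like Josd2 (0.894), H2-Q1 (0.893) and Cbr1 (0.885), and Acot8 was most like Tm7sf2 (0.893), Mrpl9 (0.871) and Nudt6 (0.867).

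Genes that feed or share the acyl-CoA pool were counted beside the set. The counts of each list stand against 15.3% of all genes called lower and 15.2% higher in METTL3 knockout livers, and 2.82% lower and 1.99% higher in livers labelled RPN11 knockout. Without the knockout liver 4 of the line these shares were 12.2% lower and 12.1% higher for METTL3, and 4.04% lower and 3.65% higher for RPN11. Of 27 peroxisomal acyl-CoA genes and PPAR alpha targets, 18 fell and 1 rose in METTL3 knockout against METTL3 flox/flox livers, with a median log2 fold change of -1.15. The lowest p belonged to Ech1 (log2 fold change -1.56, SE 0.19, adjusted p = 0.000451), a dienoyl-CoA isomerase, Vnn1 (-1.40, SE 0.18, adjusted p = 0.000540), a pantetheinase, and Acaa1a (-1.46, SE 0.20, adjusted p = 0.000673), a peroxisomal thiolase. The gene that rose was Pdk4, the pyruvate dehydrogenase kinase (2.42, SE 0.39, adjusted p = 0.00246), which is likewise a known PPAR alpha target. In livers labelled RPN11 knockout against RPN11 flox/flox livers, 8 of the 27 fell and 0 rose, with a median of -0.51. Among those that fell there were Vnn1 (-1.22, SE 0.15, adjusted p = 0.00339) and Acaa1b (-1.03, SE 0.19, adjusted p = 0.0175), another peroxisomal thiolase. Ppara itself had a log2 fold change of -0.75 in METTL3 knockout against METTL3 flox/flox livers (SE 0.28, adjusted p = 0.0708) and -1.06 in RPN11-labelled knockout against RPN11 flox/flox livers (SE 0.33, adjusted p = 0.0989). Without the knockout liver 4 of its line, 16 fell and 1 rose in METTL3 knockout livers and 11 fell in livers labelled RPN11 knockout.

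Of 10 other medium-chain acyl-CoA genes tested, 7 fell and 0 rose in METTL3 knockout livers (median -0.74), led by Hadh (-1.24, SE 0.19, adjusted p = 0.00113), Acadl (-1.01, SE 0.17, adjusted p = 0.00175) and Acadm (-0.93, SE 0.17, adjusted p = 0.00296), dehydrogenases of mitochondrial beta-oxidation. Under the RPN11 knockout label 3 fell (median -0.44), which were Hadh (-0.79, SE 0.14, adjusted p = 0.0160), Crat (-0.89, SE 0.16, adjusted p = 0.0169) and Acads (-0.51, SE 0.13, adjusted p = 0.0479). These counts were the same without the knockout liver 4 of each line.

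The other thioesterases and related acyltransferases did not share one direction. Of 9 tested, 2 fell in METTL3 knockout livers, Acot7 (-1.14, SE 0.20, adjusted p = 0.00222) and Them4 (-0.76, SE 0.17, adjusted p = 0.00622), and 3 rose, Acot9 (1.71, SE 0.47, adjusted p = 0.0210), Acnat1 (0.59, SE 0.17, adjusted p = 0.0215) and Acot6 (1.97, SE 0.66, adjusted p = 0.0424). Without knockout liver 4 of the line the same genes fell, and Acot9 (adjusted p = 0.0438) and Acnat1 (adjusted p = 0.0252) rose, while Acot6 had an adjusted p of 0.0678 by edgeR. Acot9 shares sequence with Acot10, and Acot6 with its neighbours on chromosome 12. Acnat1, which joins fatty acids to an amino acid in peroxisomes, was the only one of the 9 called in livers labelled RPN11 knockout, where it fell (-0.86, SE 0.21, adjusted p = 0.0483), as it did without knockout liver 4 (adjusted p = 0.0266 by edgeR). The Acnat1 effect differed between the lines by -1.46, RPN11 minus METTL3 (SE 0.30, adjusted p = 0.00481). Sequence that Acnat1 may share with other genes was not examined.

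Of 10 tested genes of free CoA supply and acyl-CoA binding, 4 fell and 1 rose in METTL3 knockout livers (median -0.48), where 30.5% of all genes were called in either direction, with the lowest p for Acbd4 (-1.24, SE 0.26, adjusted p = 0.00534), Pank1 (-0.97, SE 0.22, adjusted p = 0.00725) and Pank3 (-0.45, SE 0.13, adjusted p = 0.0213), the last of which, like Pank1, is a pantothenate kinase. The gene that rose was Acbd3 (0.52, SE 0.17, adjusted p = 0.0429), a Golgi protein with an acyl-CoA binding domain. The livers labelled RPN11 knockout had 2 that fell (median -0.27), Pank1 (-0.61, SE 0.14, adjusted p = 0.0348) and Coasy (-0.39, SE 0.10, adjusted p = 0.0499), the enzyme of the final steps of CoA synthesis. Without knockout liver 4 of its line, 4 fell and 0 rose in METTL3 knockout livers, and 2 fell in livers labelled RPN11 knockout.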

How the data were processed

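Counts per gene were deposited by the authors for 16 livers, as whole numbers, from rRNA-depleted total RNA. Per the submitters' processing notes the authors used cutadapt 1.9.3, HISAT2 2.0.4, HTSeq 0.9.1, edgeR and mm10; the sources used here do not state the annotation and strandedness. The deposited normalized columns were not used. Positions and exon lengths came from GENCODE M21, where 16804 of 16973 genes matched, and promoters from RefSeq.

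Each line was fitted alone with edgeR 4.0.16 in R 4.3.3 (filterByExpr, TMM, robust quasi-likelihood test), with Benjamini-Hochberg adjustment over all tested genes and a threshold of 0.05. The test was tried on counts simulated from its own fitted dispersions, which held no outlier liver and no brain transcripts. The difference between lines was an interaction in a fit of 16 livers. RPKM are TMM-scaled CPM per kilobase of exon. Alternatives used DESeq2 1.42.0, limma 3.58.1 with voom and liver quality weights together, other scalings and filters, a replicate block and each liver left out. All 10 genes passed the count filter in every comparison. Livers labelled RPN11 knockout 1 and 3 were the closest pair (chi-square per gene 8.37, next pair 30.2) but differed beyond sampling noise and were counted separately. Named genes were all 10 members, the called genes of the 3 lowest p per list in each line (all called ones for the other thioesterases), and the 3 genes most like each called member; Acnat1, Acot6, Pdk4, Ppara and Acbd3 were named after their values were seen, and some genes that this rule names are not reported here. The members and lists were chosen with earlier results of these data known.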

Additional observations from a re-analysis of the deposited data

Results flagged for a closer look

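Acot12 stood apart in 1 liver. Livers labelled RPN11 knockout 1 to 3 had 229, 225 and 232 CPM and liver 4 had 149.6 CPM, a gap of 0.918 of the whole range of the group, which is past Dixon's critical value for 4 samples. Of 40 groups of 4 livers examined over the 10 genes, 1 was marked in this way, and chance marks about 1 in 20. That liver also had 584 CPM of brain markers and, with TMM scaling, the lowest hepatocyte marker sum of its group, 94607 CPM. With plain library totals the lowest sum of the group, 106774 CPM, came from another liver. The part of brain transcripts or of hepatocyte content was not tested.

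The Acsm3 effect differed between the lines by 1.11 on the log2 scale, RPN11 minus METTL3 (SE 0.34, adjusted p = 0.0398 by edgeR). Acsm3 was below the lowest flox/flox liver of its line in 3 of 4 livers labelled RPN11 knockout and in 4 of 4 METTL3 knockout livers. Eri2 overlaps Acsm3 on the opposite strand, and its difference was -0.50 (SE 0.33, adjusted p = 0.354).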

How the results depend on the processing

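Each group held 4 livers, the smallest count behind a level was 75, and leaving out 1 liver moved several calls. In the RPN11 line the members called were 0 in the reported test, 3 with DESeq2 and 3 with voom and quality weights (one alternative), and 0 to 3 when each liver was left out, where 3 came without RPN11 flox/flox liver 2 and 1 without knockout liver 4. Over all genes the share called there was 4.81% in the reported test and 0.475% to 12.0% over the alternatives. In the METTL3 line they were 8, with 6 under plain library totals, 9 with weighted voom, with the replicate block and in the fit of all 16 livers, and 6 to 9 when each liver was left out, where 30.5% of all genes were called in the reported test and 20.7% to 43.1% over the alternatives. The calls of Acot3, Acot4, Acot8, Acot12, Acot13 and Acsm3 held under all 16 alternatives run there, and their largest adjusted p was 0.0470, for Acot3. For the difference between the lines the members called were 1 in the reported test, 0 with no filter on low counts, 2 with plain library totals, 2 with genes of at least 5 CPM, 3 with DESeq2, 5 with weighted voom, 2 without both knockout livers numbered 4, and 0 to 6 when each liver was left out, where 6 came without METTL3 knockout liver 1. The share of all genes called was 13.1% there, 26.5% with weighted voom, 19.8% without METTL3 knockout liver 1 and 8.09% to 26.5% over the alternatives. Between flox/flox livers 0 members were called throughout, with 0.319% of all genes in the reported test and 0.00762% to 3.47% over the alternatives. The replicate block gave 2 for this difference, adding Acot12, and otherwise changed only the call of Acsm5 in the METTL3 line. Deviations of livers of the same number had r of -0.05 to -0.01 in the RPN11 line and -0.09 to 0.08 between flox/flox livers. In the METTL3 line r was 0.03 to 0.23, and knockout livers 1, 3 and 4 were most like the flox/flox liver of their own number. Whether the numbers pair livers was not tested. Plain library totals moved the median log2 fold change of all genes to 0.18 in the RPN11 line, 0.46 in the METTL3 line and -0.24 for the difference. Signs turned in 3 genes that were not called, as the livers were left out in turn: Acot2 in the METTL3 line ran from -0.066 (without knockout liver 2) to 0.62, and between flox/flox livers Acot8 ran from -0.20 to 0.22 (without METTL3 flox/flox liver 2) and Acot13 from -0.072 (without RPN11 flox/flox liver 4) to 0.12. With weighted voom the values between flox/flox livers were 0.0037 for Acot8 and -0.0065 for Acot13. The causes were not tested. The summed cluster levels kept their direction under the alternatives run for them, which were RLE factors, plain library totals and each liver left out.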
